A study of Homo sapiens with 12 samples.

Results

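The 10 genes described here make up the core of the insulin-like growth factor (IGF) system on the array, namely the ligand IGF2, the receptors IGF1R and IGF2R, and the binding proteins IGFBP1 to IGFBP7. They were chosen by gene symbol, through the RefSeq transcript that the array gives for each probe, and were read by 11 of the 50599 probes, or 10 of the 20503 genes with a probe. Of these genes 8 could be tested between the 2 hepatocellular carcinoma lines, and 4 of them differed. Over all probes 22.0% differed with control siRNA and 22.9% with GALNT1 siRNA. IGFBP1, 1 of the 4, entered this test through its PLC5 arrays alone. None of the genes passed the test for a change under GALNT1 knockdown. GALNT1 itself passed that test on only 1 of its 2 probes, in HA22T. IGFBP1 and IGFBP2 were lower in HA22T than in PLC5, and IGFBP4 and IGFBP6 were higher in HA22T, in both siRNA settings.

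The IGF system is a family of secreted growth factors, their receptors and a set of carrier proteins. IGF1 and IGF2 signal through the receptor tyrosine kinase IGF1R, which recruits insulin receptor substrate proteins and the PI3K-AKT-mTOR arm, while IGF2R binds IGF2 and delivers it to lysosomes without such signaling. The binding proteins hold IGFs in the circulation and in the tissue, and they limit or prolong access to the receptor. The liver is the main source of circulating IGF1 and of IGFBP1, a hormone-responsive hepatocyte product.

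Levels of mRNA were measured on one-color expression arrays in HA22T and PLC5 cells, a pair of human hepatocellular carcinoma lines. Each line had been transfected for 48 h with siRNA at 10 nM, either non-targeting (siControl) or a pool against GALNT1 (siGALNT1), an enzyme that starts mucin-type O-glycosylation. Each of the 4 groups (HA22T siControl, HA22T siGALNT1, PLC5 siControl and PLC5 siGALNT1) held 3 arrays, and all cells carried an siRNA, so no untreated cells were compared. The labels number the replicates and the methods speak of RNA extraction in triplicate, without naming separate cultures, so that p-values measure the spread between these arrays, which may be technical.

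Levels are given as log2 of the processed signal minus the 75th percentile of the same array, so that 0 marks a spot at that percentile. A level describes 1 probe across arrays and is not set against the level of another probe. To enter a comparison, a probe needed a signal well above background on 3 or more of its 6 arrays, and a call required an adjusted p below 0.05 over all probes that entered. Between 36679 and 48873 of 58717 spots were well above background on each array and 0 were saturated. Replicate arrays correlated at r = 0.968 to 0.988 across 22282 probes. The 6 HA22T arrays and 2 PLC5 arrays shared one slide, and the other 4 PLC5 arrays lay on a second slide. GALNT1 itself read 0.97 ± 0.30 (SD, n = 3) in HA22T siControl and -4.13 ± 1.26 in HA22T siGALNT1 on its brighter probe, and 0.62 ± 0.25 and -3.10 ± 1.04 in the matching PLC5 groups, lower in all 6 siGALNT1 arrays. On that probe the change was -5.10 in HA22T (SE 0.61, adjusted p = 0.0708) and -3.72 in PLC5 (SE 0.61, adjusted p = 1.00), and on the dimmer probe -4.75 (SE 0.49, adjusted p = 0.0305) and -3.03 (SE 0.49, adjusted p = 1.00). The targeted gene thus did not pass in PLC5 although it was 13.2-fold and 8.18-fold lower.

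Promoters are shown for the 3 members that differed between the lines and have an entry in the RefSeq promoter table of GRCh38.p14. They lie at annotated starts of these genes, and the starts used in these cells were not measured. The table matched 7 of the 10 genes, and IGF2, IGFBP1 and IGFBP7 had no entry. The table holds 3 starts for IGFBP2, of which the one at the annotated gene start is shown. Each sequence is the 250 bases before the annotated gene start, 5′ to 3′ on the gene's strand. Capitals mark matches to a GC box (GGGCGG, or CCGCCC on the other strand) or to a TATA box (TATAAA, or TTTATA on the other strand). IGFBP4 and IGFBP6 were higher in HA22T and IGFBP2 was higher in PLC5.
IGFBP2, chr2:216632578-216632827, plus strand: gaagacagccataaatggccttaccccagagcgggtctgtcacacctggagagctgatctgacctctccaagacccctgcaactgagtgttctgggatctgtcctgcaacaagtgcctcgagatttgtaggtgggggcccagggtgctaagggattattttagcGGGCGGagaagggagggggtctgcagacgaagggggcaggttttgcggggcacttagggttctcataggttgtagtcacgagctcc
IGFBP4, chr17:40443200-40443449, plus strand: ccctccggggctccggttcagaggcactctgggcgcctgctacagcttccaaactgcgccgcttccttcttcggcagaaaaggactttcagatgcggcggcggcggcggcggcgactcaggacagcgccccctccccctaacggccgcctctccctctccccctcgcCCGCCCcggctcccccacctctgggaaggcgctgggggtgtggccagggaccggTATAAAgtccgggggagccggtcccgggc
IGFBP6, chr12:53097417-53097666, plus strand: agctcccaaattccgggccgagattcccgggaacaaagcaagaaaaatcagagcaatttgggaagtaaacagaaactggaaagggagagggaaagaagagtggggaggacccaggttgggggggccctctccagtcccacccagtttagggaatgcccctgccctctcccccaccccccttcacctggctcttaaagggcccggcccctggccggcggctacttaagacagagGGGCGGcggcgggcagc

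Each of these windows held 1 GC box, a motif found in 42.6% of 35116 promoter windows of the same length. A TATA box lay in the IGFBP4 window, beginning 29 bases before the start, against 10.7% of all windows, and no match was found in the windows of IGFBP2 and IGFBP6. The windows of the other IGFBP2 starts held 1 and 0 GC boxes and no TATA box, with a GC content of 69.2% and 56.4%. The GC content of the windows shown was 56.8% for IGFBP2, 71.6% for IGFBP4 and 61.2% for IGFBP6, with a median of 58.0% over all windows. The motif matches describe the letters of these windows, and no factor binding was measured. In the same annotation IGFBP2 and IGFBP5 lie next to each other on chromosome 2, and IGFBP1 and IGFBP3 next to each other on chromosome 7.

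**Figure D1:**
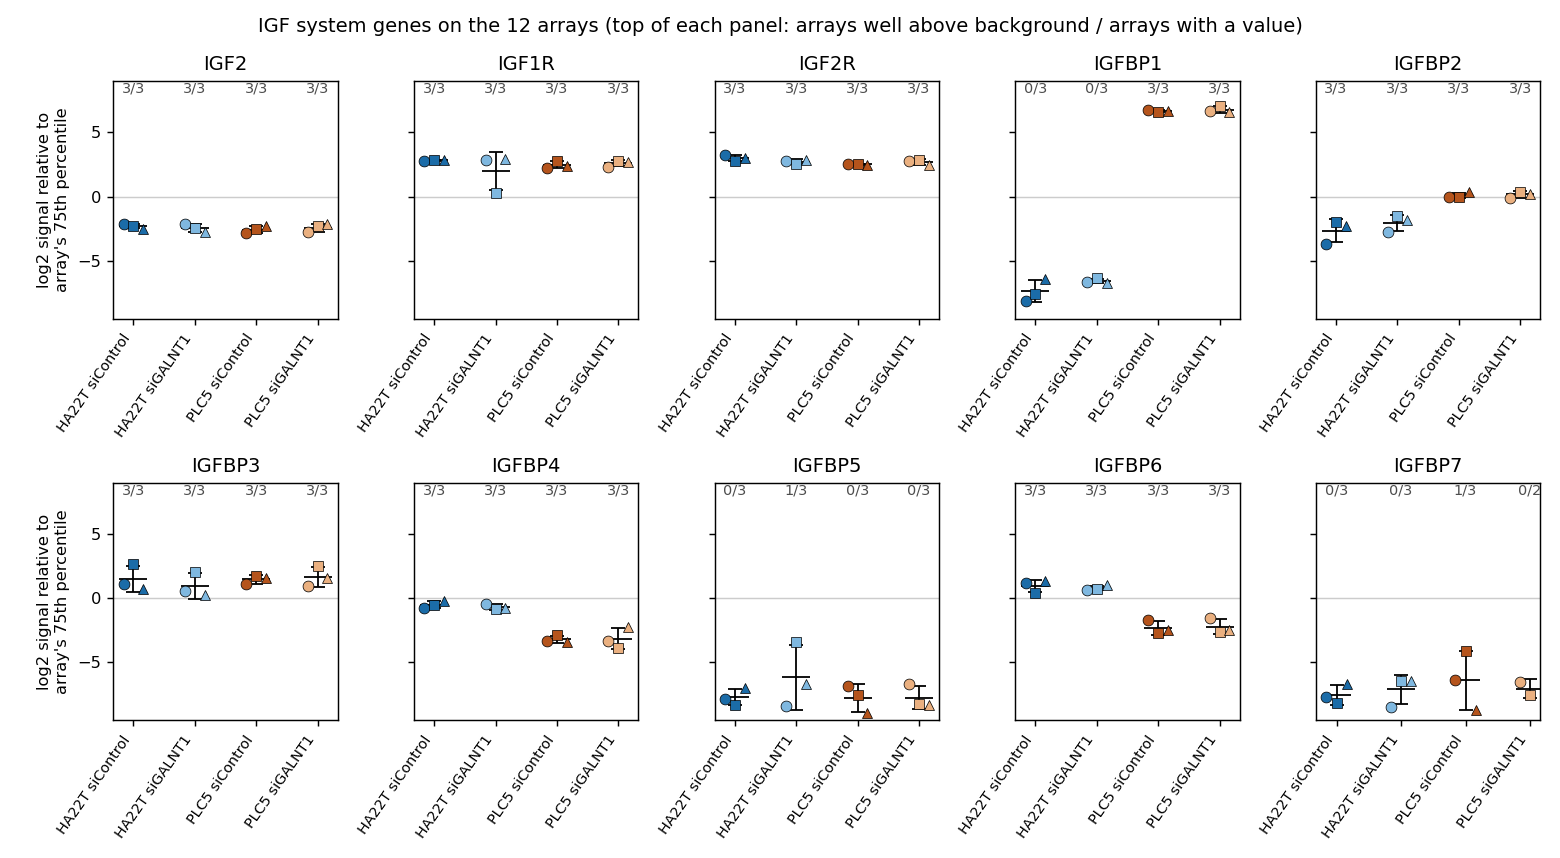
Levels of the 10 genes on the 12 arrays (vertical axis, log2 signal relative to the array's 75th percentile; circles, squares and triangles are replicates 1, 2 and 3; horizontal marks and bars are the mean ± SD). IGFBP1 shows the widest separation of the lines, from near -7 in HA22T to near 7 in PLC5, and the numbers at the top of each panel count arrays well above background among those with a value.

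The lines were compared first, to learn how the IGF system differs between the cell backgrounds. In the siControl arrays 8 of the 10 genes could be tested and 4 were called, IGFBP4 and IGFBP6 higher and IGFBP1 and IGFBP2 lower in HA22T. Over all probes 22.0% were called in that comparison, 11.0% higher and 11.0% lower. In the siGALNT1 arrays, which are other samples, the same 4 genes of 8 were called in the same directions, against 22.9% of all probes, with 9.79% higher and 13.1% lower. IGFBP1 passed the filter in both settings through its PLC5 arrays alone, so its call is not separate from that filter. The arrays of the 2 lines did not overlap for these 4 genes in either setting, as for 42.4% of all probes under siControl and 40.7% under siGALNT1. The median difference over the 8 genes was 0.31 in siControl and -0.30 in siGALNT1, beside medians of 0.04 and 0.10 over all probes tested.

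IGFBP1, the hepatocyte binding protein that responds to insulin and fasting, showed the largest difference among the 10 genes. It read 6.71, 6.55 and 6.66 in PLC5 siControl and 6.70, 7.05 and 6.55 in PLC5 siGALNT1. In HA22T it read -8.10, -7.58 and -6.44 under siControl and -6.67, -6.38 and -6.69 under siGALNT1, and no HA22T array was well above background. All 6 PLC5 arrays therefore lay far above all 6 HA22T arrays, and the HA22T level is known only to be below the dimmest signal that counts as well above background. Set against that dimmest signal on each HA22T array, IGFBP1 was at least 4675-fold higher in PLC5 under siControl and at least 3419-fold higher under siGALNT1. The adjusted p in limma, 9.23e-09 and 1.08e-08, belongs to the measured differences and does not test these bounds. Its neighbor IGFBP3 did not pass the test between the lines in either setting.

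IGFBP2, a binding protein abundant in fetal liver and in many tumors, read -0.01, -0.02 and 0.35 in PLC5 siControl and -0.10, 0.37 and 0.23 in PLC5 siGALNT1. In HA22T it read -3.69, -1.95 and -2.31 under siControl and -2.78, -1.54 and -1.84 under siGALNT1. The lines did not overlap, and the HA22T values were more spread than those of PLC5. The difference was 6.76-fold under siControl (log2 -2.76, SE 0.45, adjusted p = 0.000945) and 4.66-fold under siGALNT1 (log2 -2.22, SE 0.45, adjusted p = 0.00406), both lower in HA22T.

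IGFBP4, a binding protein that mostly restrains IGF action until the protease PAPPA cleaves it, read -0.76, -0.54 and -0.22 in HA22T siControl and -0.43, -0.85 and -0.77 in HA22T siGALNT1. In PLC5 it read -3.29, -2.87 and -3.39 under siControl and -3.32, -3.85 and -2.23 under siGALNT1. All HA22T arrays were above all PLC5 arrays. The difference was 6.39-fold (log2 2.68, SE 0.38, adjusted p = 0.000347) under siControl and 5.47-fold (log2 2.45, SE 0.38, adjusted p = 0.000682) under siGALNT1.

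IGFBP6, which binds IGF2 in preference to IGF1, read 1.15, 0.45 and 1.35 in HA22T siControl and 0.68, 0.71 and 1.00 in HA22T siGALNT1. In PLC5 it read -1.70, -2.70 and -2.48 under siControl and -1.56, -2.63 and -2.49 under siGALNT1. The lines again did not overlap, with the replicate 1 arrays of PLC5 the least low. IGFBP6 was 9.69-fold higher in HA22T under siControl (log2 3.28, SE 0.38, adjusted p = 7.90e-05) and 8.14-fold higher under siGALNT1 (log2 3.02, SE 0.38, adjusted p = 0.000152).

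The line and the slide were partly confounded. Among the arrays of the shared slide, the 6 HA22T arrays differed from the 2 PLC5 arrays by log2 -2.30 for IGFBP2, 2.71 for IGFBP4 and 2.52 for IGFBP6, and IGFBP1 was well above background on the PLC5 arrays alone. With the slide as a block in the fit, the siControl differences were -2.57 for IGFBP2, 2.82 for IGFBP4 and 2.64 for IGFBP6, and all 4 binding proteins remained below the adjusted threshold in both settings.

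**Figure D2:**
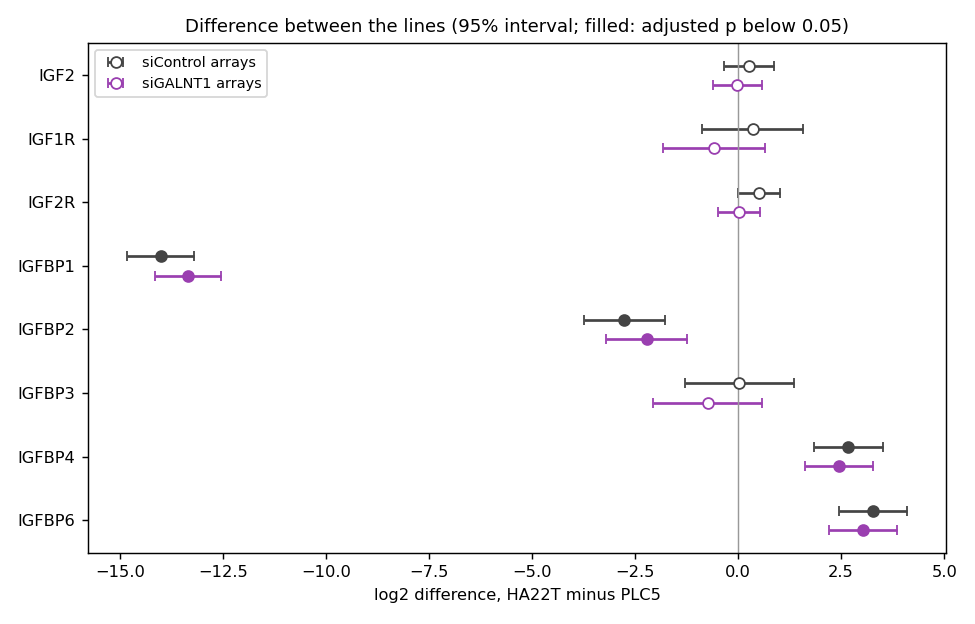
Difference between the lines for the 8 testable genes (horizontal axis, log2 HA22T minus PLC5; points are fitted values, bars 95% intervals, filled points an adjusted p below 0.05; gray siControl, purple siGALNT1). IGFBP1, IGFBP2, IGFBP4 and IGFBP6 pass in both settings, and the IGFBP1 points rest on HA22T signals not well above background, so that only the bounds in the text hold for it.

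The ligand and the receptors did not pass the test between the lines. IGF2, the fetal growth factor whose gene is imprinted, averaged -2.32 ± 0.17 and -2.45 ± 0.33 in HA22T under siControl and siGALNT1, and -2.58 ± 0.27 and -2.43 ± 0.32 in PLC5 (SD, n = 3 each). The line difference was 0.27 under siControl (95% interval -0.33 to 0.87, adjusted p = 0.552) and -0.02 under siGALNT1 (-0.62 to 0.58, adjusted p = 0.969). A second, dimmer IGF2 probe gave -0.18 and 0.39 for the same differences, the opposite direction in both, with neither called. IGF2 shares sequence with the INS-IGF2 readthrough transcript annotated over it, so the reads of these probes cannot be assigned to one of them.

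IGF1R, the signaling receptor, read 2.77, 2.88 and 2.83 in HA22T siControl and 2.25, 2.78 and 2.40 in PLC5 siControl. It read 2.31, 2.74 and 2.73 in PLC5 siGALNT1 and 2.82, 0.31 and 2.91 in HA22T siGALNT1, where replicate 2 stood apart from the other 11 arrays. The line difference was 0.35 under siControl (95% interval -0.88 to 1.58) and -0.59 under siGALNT1 (-1.81 to 0.64), and the latter became 0.27 without that array. The spread is shared by all 4 groups, so that array also entered the siControl interval. The SE of the siGALNT1 difference was 0.56 with that array and 0.28 without it. The spot of the low array measured a brightness of 2637 over a local background of 380, whereas the local background of this spot was 47 to 52.5 on the other HA22T arrays. The 37 spots around it were shifted by a median of 0.53 log2 from the other HA22T arrays, while the IGF1R spot lay -2.53 from them. The spot carried no flag, and the part of the local background in the low value was not tested.

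IGF2R, the scavenger receptor for IGF2, read 3.25, 2.77 and 3.01 in HA22T siControl and 2.51, 2.56 and 2.43 in PLC5 siControl. These groups did not overlap, and the difference of 0.51 did not pass (95% interval -0.0018 to 1.02, adjusted p = 0.153). Under siGALNT1 the means were 2.71 ± 0.18 and 2.69 ± 0.22 with a difference of 0.02. No order of the lines could be read for either receptor or for IGF2.

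IGFBP3, the main carrier of IGFs in serum, had a probe printed on 10 spots of each array, as had IGFBP2, which gives the error within an array. In HA22T it read 1.12, 2.66 and 0.70 under siControl and 0.54, 2.08 and 0.24 under siGALNT1, and in PLC5 1.11, 1.72 and 1.57 and then 0.97, 2.53 and 1.57. The SD over the spots of one array was 0.0706 to 0.380 in HA22T and 0.0451 to 0.237 in PLC5. The SD between the 3 HA22T arrays of a group was 1.03 and 0.98. Replicate 2 was the highest array in all 4 groups. The line difference was 0.03 under siControl (95% interval -1.30 to 1.35) and -0.74 under siGALNT1 (-2.06 to 0.59), and the siControl value became -0.55 without HA22T siControl replicate 2. For IGFBP2 the spot SD was 0.288 to 0.451 in HA22T and 0.0871 to 0.155 in PLC5.

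**Figure D3:**
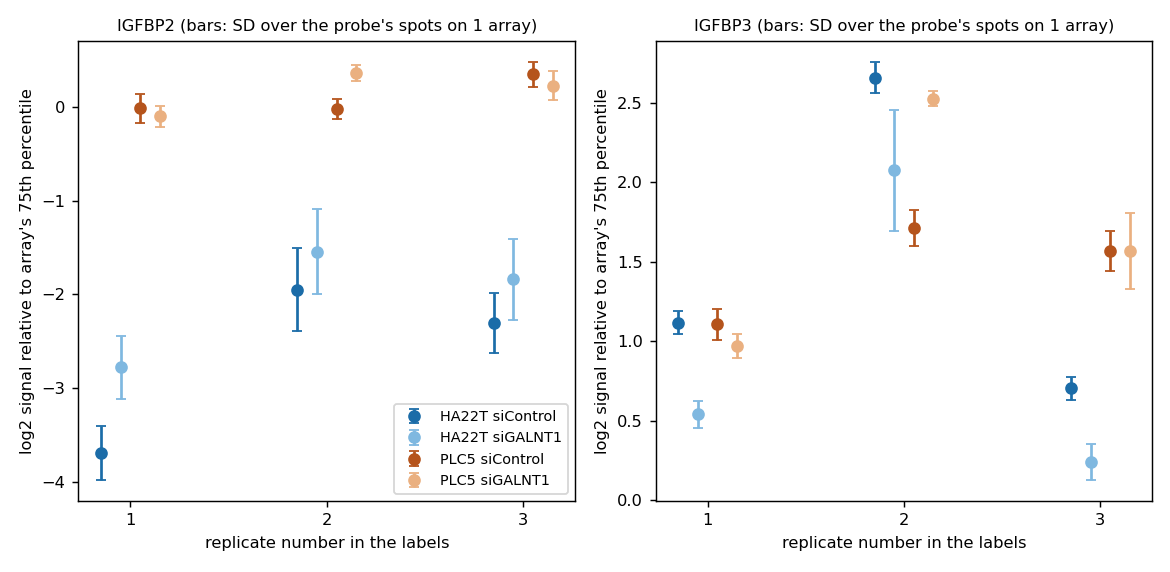
IGFBP2 and IGFBP3 by replicate number (vertical axis, log2 signal relative to the array's 75th percentile; each point is 1 array, bars are the SD over the probe's spots on that array). In all 4 groups IGFBP3 is highest at number 2. In both HA22T groups IGFBP2 is least low at number 2 and lowest at number 1.

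IGFBP5, a binding protein held in the extracellular matrix, was not well above background on 11 of the 12 arrays, and the exception was the HA22T siGALNT1 replicate 2 array on which IGF1R stood apart. There it read -3.41 over a local background of 234, against 51 to 57 on the other HA22T arrays, and the mean of its group was -6.16 ± 2.52. IGFBP7, a low-affinity binder, was well above background on 1 array only, PLC5 siControl replicate 2 at -4.13, and its spot was flagged and gave no value on 1 PLC5 siGALNT1 array. No fold is given for either gene. IGFBP5, the neighbor of IGFBP2 in the genome, was thus not well above background on any array of PLC5, the line in which IGFBP2 was higher.

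The second question was whether siGALNT1 changed any of these genes. In HA22T 7 of the 10 genes could be tested and 0 were called. In limma without a replicate block 0 had an unadjusted p below 0.05, and 0 passed the methods' t-test after adjustment. Over all probes 0.00275% were called, which is 1 of 36327, and 2.99% had an unadjusted p below 0.05 in limma. The differences ranged from -0.82 for IGF1R to 0.60 for IGFBP2, with a median of -0.19 beside -0.06 over all probes. In PLC5 8 genes were tested, 0 were called and 0 had an unadjusted p below 0.05 in limma. Of 38070 probes 0% were called and 1.33% had such an unadjusted p. All 8 PLC5 differences, each from the brightest probe of its gene, were between 0.05 and 0.23, with a median of 0.12 beside 0.01 over all probes. Since GALNT1, 13.2-fold lower in PLC5, did not pass there after adjustment, even large changes could fail this test with 3 arrays a group. The absence of calls therefore does not show that the IGF genes did not change. Each gene's interval gives the range of changes left by this fit. Its width rests on 1 spread over all 4 groups, moderated by limma, so arrays outside a comparison also set it.

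The largest value in HA22T, -0.82 for IGF1R (95% interval -2.05 to 0.41), became 0.03 without the replicate 2 array described above. IGFBP2 gave 0.60 (-0.39 to 1.58) and was higher in siGALNT1 than in siControl at each of the 3 replicate numbers, by 0.91, 0.41 and 0.46. IGFBP3 gave -0.54 (-1.87 to 0.79) and was lower at each number, by -0.58, -0.58 and -0.46. IGF2R gave -0.30 (-0.81 to 0.21) and was also lower at each of the 3 numbers. The siGALNT1 and siControl groups overlapped for every IGF gene tested in both lines, while 12.0% of all probes in HA22T and 5.94% in PLC5 showed no overlap. Same-numbered HA22T arrays deviated together over all probes, and with the replicate number as a block the SE of IGFBP2 was 0.22 and that of IGFBP3 0.25, but the adjusted p was 0.821 for both. IGFBP4 and IGFBP6 differed by -0.18 and -0.19 (95% intervals -1.01 to 0.65 and -1.01 to 0.64).

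In PLC5 IGFBP1, bright on all arrays, differed by 0.13 between siGALNT1 and siControl (95% interval -0.68 to 0.93, 1.09-fold). IGF2R gave 0.19 (-0.32 to 0.71) and IGF2 0.16 (-0.44 to 0.76). The dimmer IGF2 probe gave -0.31 in PLC5 and 0.27 in HA22T, where the brighter probe gave -0.13. The directions of the 2 probes were thus opposite in both lines, with neither called. IGFBP4, IGFBP6 and IGFBP2 gave 0.05, 0.07 and 0.06. The knockdown effects of the lines were also compared with each other. None of the 8 genes tested passed in the interaction (0% of 39100 probes called), and the lowest unadjusted p among them was 0.163, for IGF2R, with a difference between the line effects of -0.49 (95% interval -1.22 to 0.23).

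**Figure D4:**
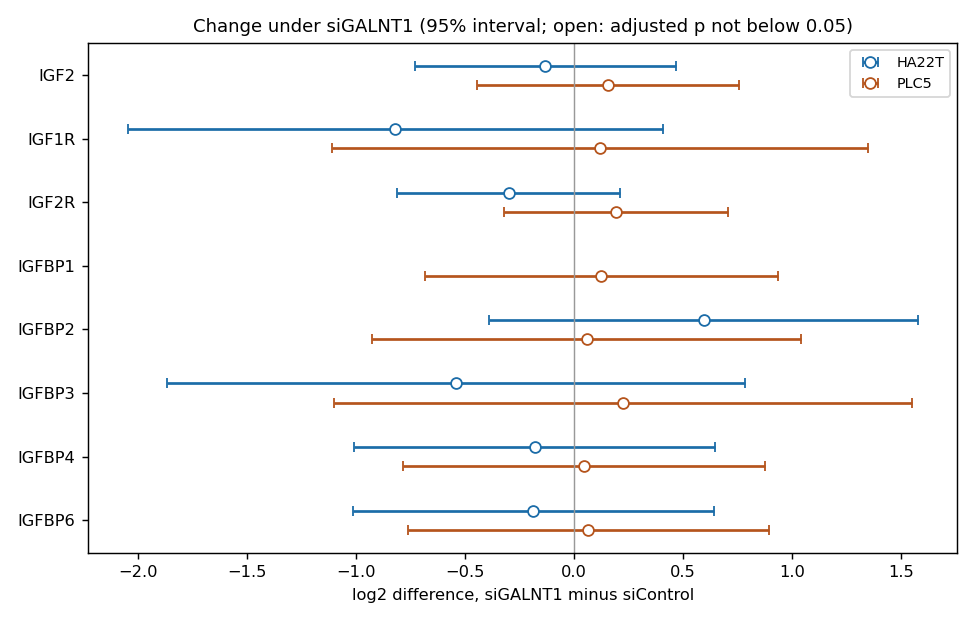
Difference between siGALNT1 and siControl in each line (horizontal axis, log2 siGALNT1 minus siControl; points are fitted values, bars 95% intervals, blue HA22T, orange PLC5). Every interval includes 0, no point is filled, and IGFBP1 has no HA22T point because it was not well above background there.

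The other genes of the pathway were described from a list of 54, of which 52 had a value and 50 could be tested between the lines. Under siControl 14 were higher in HA22T, 6 were lower and 30 did not pass, where 11.0% of all probes were called higher and 11.0% lower. The median difference was 0.52 beside 0.04 over all probes. Under siGALNT1 10 were higher, 5 lower and 35 did not pass, where 9.79% of all probes were called higher and 13.1% lower, with a median of 0.29 beside 0.10. The number higher depended on the scaling, with 16 higher and 5 lower for the percentile over unflagged spots, 14 and 6 with normexp and 13 and 6 with quantile normalization. For siGALNT1 against siControl 0 of 50 were called in HA22T and 0 of 48 in PLC5. In limma 2.99% of all probes in HA22T and 1.33% in PLC5 had an unadjusted p below 0.05. Of the list 0 genes had such a p in PLC5 and 1 gene had it in HA22T. It was RICTOR, an mTOR complex subunit named here after its values were seen, at -0.59 (adjusted p = 1.00).

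Among the other ligands and receptors 1 of 4 passed, lower in HA22T in both settings. This was INSR, the insulin receptor that forms hybrids with IGF1R, at -2.64 ± 0.12 in HA22T siControl and -0.61 ± 0.32 in PLC5 siControl, a difference of -2.04 (SE 0.31, adjusted p = 0.000598) and of -2.40 under siGALNT1. IGF1, the second ligand, averaged -0.11 ± 0.62 and 0.30 ± 0.75 in the same groups and did not pass (adjusted p = 0.675). IGFALS, the subunit that completes the ternary IGF complex in serum, differed by 0.41 (adjusted p = 0.445).

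Related binders of the CCN family, matricellular proteins with an IGFBP-like module, included the widest differences of the list, with 3 of 6 tested carriers and binders higher in HA22T in both settings. CCN1 read 4.09, 5.46 and 5.45 in HA22T siControl and -0.84, -0.56 and 0.24 in PLC5 siControl, a difference of 5.39 (SE 0.57, adjusted p = 4.42e-05). CCN2 differed by 2.48 (adjusted p = 0.0155). CCN3 read 0.84, -0.67 and -0.65 in HA22T siControl and was on no PLC5 array well above background. It was thus at least 37.5-fold higher in HA22T under siControl and at least 28.0-fold higher under siGALNT1. CCN3 passed the filter in both settings through its HA22T arrays alone, so its call is not separate from that filter. Its adjusted p of 4.12e-06 under siControl belongs to the measured difference, not to the bound.

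Of the 5 binding protein proteases and their inhibitors, 1 was higher and 1 lower in HA22T under siControl. PAPPA, the protease of IGFBP4, read -2.71, -3.04 and -2.81 in HA22T siControl and was not well above background on any PLC5 array. It was at least 6.64-fold higher in HA22T under siControl and at least 5.42-fold under siGALNT1. PAPPA too passed the filter in both settings through its HA22T arrays alone, so its call is not separate from that filter. Its adjusted p of 3.40e-05 under siControl belongs to the measured difference, not to the bound. PAPPA was thus higher in the same line as its substrate IGFBP4. STC2, an inhibitor of PAPPA, went the other way, at -1.16 ± 0.25 in HA22T siControl and 1.30 ± 0.17 in PLC5 siControl (difference -2.46, SE 0.28, adjusted p = 8.10e-05). STC1, a second inhibitor, differed by 2.16 under siControl (adjusted p = 0.0718) and by 2.14 under siGALNT1 (adjusted p = 0.0473).

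Downstream, 1 of 8 docking and adaptor genes passed in each setting. GRB14, an adaptor that restrains insulin receptor signaling, was lower in HA22T by -3.07 under siControl (adjusted p = 0.00167) and by -3.59 under siGALNT1. IRS1 and IRS2, the docking proteins of the receptors, differed by -1.01 and -0.23 under siControl and did not pass (adjusted p = 0.193 and 0.592). In the PI3K-AKT-mTOR arm 8 of 19 genes were higher and 1 lower under siControl, and 4 were higher and 1 lower under siGALNT1. PIK3CA, a catalytic subunit of PI3K, was higher by 1.94 (adjusted p = 0.00740) and GSK3B, a kinase inhibited by AKT, by 1.68 (adjusted p = 0.000186), both in HA22T under siControl.

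Of the 3 IGF2 mRNA-binding proteins, 1 was higher and 1 lower in HA22T under siControl, and 1 was lower under siGALNT1. IGF2BP1 was lower in HA22T by -1.94 (adjusted p = 0.00216) under siControl and by -2.26 under siGALNT1. IGF2BP3, named here after its values were seen, was higher by 1.07 (adjusted p = 0.00880) under siControl. Under siGALNT1 it differed by 0.63 (adjusted p = 0.0916). Of the 5 genes of the IGF2 locus and its regulators, 1 was higher and 1 lower under siControl, and 1 was higher under siGALNT1. PLAGL1 was higher in HA22T by 1.47 (adjusted p = 0.00168) under siControl and by 1.14 (adjusted p = 0.00845) under siGALNT1. H19, the noncoding RNA of the imprinted IGF2 locus, was lower in HA22T under siControl by -1.29 (adjusted p = 0.0331), which did not pass with median scaling or with the percentile taken over unflagged spots, and by -1.07 under siGALNT1 (adjusted p = 0.0975). IGF2 itself, read above, did not differ between the lines beyond its spread.

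**Figure D5:**
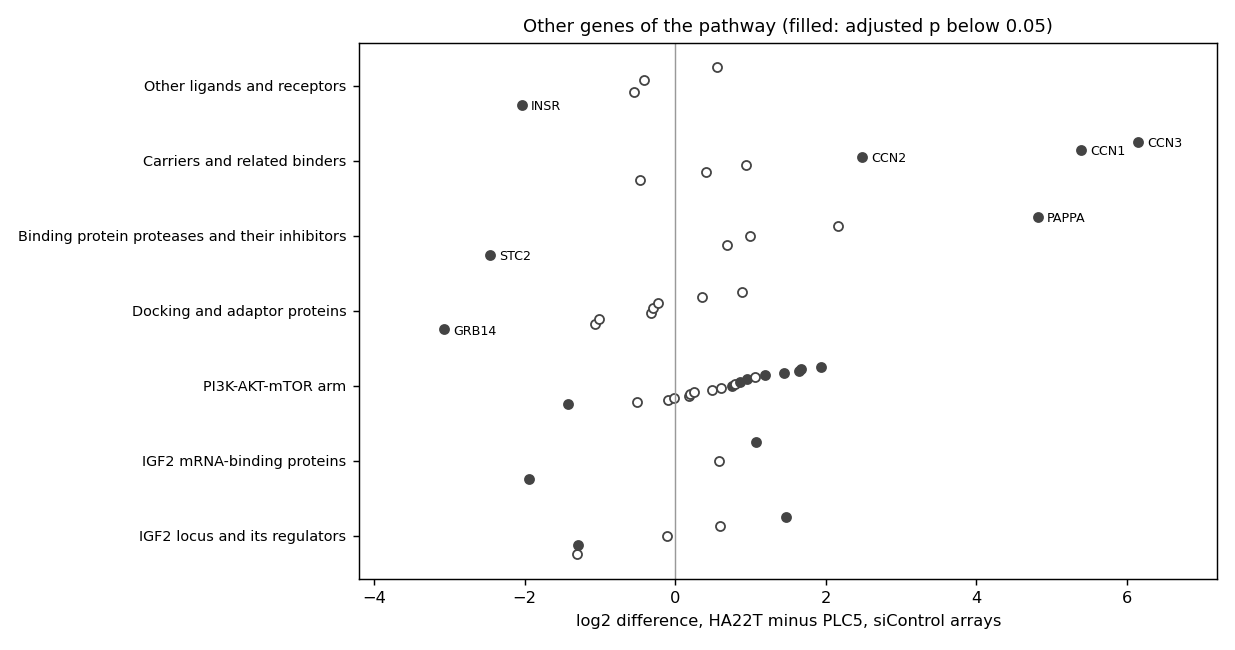
Difference between the lines for the 50 other pathway genes tested in the siControl arrays, by role (horizontal axis, log2 HA22T minus PLC5; filled points an adjusted p below 0.05, with filled points above 2 in size named). CCN3, CCN1 and PAPPA lie highest and GRB14 lowest, and the PLC5 values of CCN3 and PAPPA were not well above background.

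Markers of hepatocytes moved with the line differences. Of 12 hepatocyte markers tested, 9 were lower in HA22T in both settings and 3 did not pass, with a median difference of -4.49 under siControl. Over all probes 11.0% were called lower under siControl and 13.1% under siGALNT1. APOB differed by -9.55, ALB by -3.96 and HNF4A by -3.24, whereas AFP did not pass at -0.30. The summed level of the 12 markers (log2 of the summed signal relative to the 75th percentile) was 2.82 to 3.15 in HA22T siControl and 6.76 to 7.46 in PLC5 siControl, and 2.82 to 3.27 and 6.57 to 7.47 under siGALNT1. Only TTR of the 12 was well above background on no array of a group, HA22T siGALNT1. TTR, TF and FOXA2 were well above it on 1 of the 3 HA22T siControl arrays. In HA22T siGALNT1 this held for ALB, AFP, APOB, TF and FOXA2, again on 1 of 3 arrays. Among markers of other cell types LUM was higher by 6.12 and CD14 by 3.86 in HA22T, and PECAM1 was lower by -5.41, in siControl. The part of these markers in the IGFBP differences was not tested.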

How the data were processed

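RNA of 12 samples of HA22T and PLC5 cells was hybridised to one-color Agilent SurePrint G3 arrays. The authors extracted signals with Agilent Feature Extraction 10.5.1.1 and, by their methods, excluded non-uniform outlier features. The deposited scanner files hold intensity values per spot, and the deposited value table holds log2 values of the same arrays, which served as an alternative. The array design gave a RefSeq accession for each probe, and 28174 of 50599 probes matched a gene in the RefSeq table of GRCh38.p14.

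Here log2 of the processed signal minus the array's 75th percentile over all non-control spots was used, non-uniform spots were removed and spots of one probe were averaged. All 4 groups entered one limma 3.58.1 fit (lmFit and eBayes, R 4.3.3) with Benjamini-Hochberg adjustment over probes well above background on at least 3 of 6 arrays (interaction: in either line), threshold 0.05. Each gene was read from its brightest probe with a value in every group. The fit was tested on simulated data with independent noise on each array. That simulation held no slide or replicate effect, so it cannot show how the fit handles them. Where a group was on no array well above background, a fold is a bound against the dimmest well-above-background signal per array. The adjusted p is then that of the measured difference and does not test the bound. Same-numbered HA22T arrays deviated together over 32440 probes (r = 0.526, 0.264 and 0.338), a pairing taken from the values since the labels only number the arrays. In PLC5 the r were 0.580, 5.76e-05 and 0.182. The number 1 arrays of PLC5 thus deviated together, and they are the 2 PLC5 arrays on the shared slide. Numbers 2 and 3 lay on the second slide, where siControl 2 and siGALNT1 3 gave r = 0.448. The rule for named genes took all 10 members, GALNT1, the 12 largest called differences among other pathway genes and IGF1, INSR, IGFALS, IRS1, IRS2, PAPPA and H19 regardless. Not every gene that the rule names is reported here. The members and lists were chosen with earlier results of these data known. All value columns belonged to a sample. The number of arrays limits the precision. The paper's methods name a t-test among others and none for the arrays, so it was an alternative.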

Additional observations from a re-analysis of the deposited data

How the results depend on the processing

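The counts of called IGF genes were recomputed with normexp background correction, quantile and median scaling, the deposited table, other filters, flagged spots kept, slide and replicate blocks, other priors, each comparison fitted alone, the mean over probes, the methods' t-test, each array left out, and the percentile over unflagged spots, the last chosen after seeing the data. The line counts were 4 and 4 without any single array and 3 to 4 elsewhere, and the knockdown and interaction counts were 0 in all. IGFBP1 left the test under a filter that asks for signal above background on all 6 arrays in both settings. IGFBP4 under siGALNT1 had an adjusted p of 0.0580 in the methods' t-test (2.45). The replicate block changed no call.

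Of 837 alternative values of single genes, 800 kept direction and side of the threshold and 34 changed sign, all of differences not called. For IGF2 between lines under siGALNT1 these were 0.0264 (normexp), 0.0184 (quantile), 0.0121 (median scaling), 0.30 (slide block), 0.19 (mean over probes) and 0.21 (unflagged percentile). IGF2 under knockdown gave 0.0696 in HA22T and -0.0765 in PLC5 as the mean over probes. Quantile scaling gave -0.0515 for IGFBP3 between lines under siControl, -0.14 for IGF2R under siGALNT1 and -0.0265 for IGFBP1 under PLC5 knockdown, and the slide block -0.0251 for IGF2R. Without single arrays the line differences spanned -0.55 to 0.42 for IGFBP3 in siControl and, in siGALNT1, -0.11 to 0.12 for IGF2R, -1.03 to 0.27 for IGF1R and -0.20 to 0.15 for IGF2. Knockdown differences in HA22T spanned -1.10 to 0.0417 for IGFBP3, -1.27 to 0.0327 for IGF1R and -0.29 to 0.0354 for IGF2. In PLC5 they spanned -0.0166 to 0.23 for IGFBP1, -0.0421 to 0.19 for IGFBP2, -0.19 to 0.58 for IGFBP3, -0.40 to 0.41 for IGFBP4 and -0.27 to 0.37 for IGFBP6. The causes were not tested.

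Over all probes, the siGALNT1 line calls numbered 4113 of 35427 tested (t-test), 5233 of 23347 (strict filter) and 5288 of 36741 (alone), against 8407 of 36741. Of the 8407 calls 42.8% were higher in HA22T, against 59.2% with the unflagged percentile, which moved the median difference from 0.10 to 0.32. HA22T knockdown calls were 3 with normexp, the trended prior or the prior from counted probes and 0 with the strict filter, either block or 2 groups alone, against 1. PLC5 knockdown calls were 2 with normexp against 0. With 3 arrays a group even GALNT1 did not pass in PLC5, so the knockdown counts say little of stability, and IGFBP5 and IGFBP7 were too dim to compare.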
